A study of Mus musculus with 3 samples.

Results

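The 34 genes described here are a set of myelin and mature oligodendrocyte genes, taken by name as a list of compact myelin, adhesion, scaffold, lipid, secreted and regulatory genes of the oligodendrocyte. All 34 were found among the 50262 genes of the count table. The list was drawn up by gene name and not from a measured value.

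Oligodendrocytes wrap axons in myelin, a multilayered membrane that speeds conduction and supports the axon. As a precursor matures it passes through a committed stage marked by Gpr17 and Bmp4, then turns on Myrf and the structural genes of myelin, and at last the genes of the mature sheath such as Mog and Opalin. White matter breaks up when brain is dissociated, so myelin RNA is a common part of the free RNA in brain droplet libraries, and microglia and macrophages are known to take up myelin debris.

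Tumors were induced in adult mice of both sexes that shared a conditional transgene of wild-type human EGFR, Cdkn2a-/- and a conditional luciferase reporter, on a background mixed from Balb/cJ, SJL, FVBN/J, 129S4 and C57Bl/6J. A lentivirus carrying iCre, with or without TGFa, was injected into the striatum, so any cell type that the virus entered could recombine. The early, medium and late stages (the last labelled large) hold 1 tumor sample each, and 2 mice were pooled where cells were few, which the study states for the early samples. Perfused brains without cerebellum were digested with collagenase, spun in Percoll to remove myelin, freed of red blood cells and sorted into viable CD45+ leukocytes and CD45- cells for inDrop sequencing, in which each captured mRNA is counted once by a unique molecular identifier (UMI).

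After filtering, 17755 of 20811 cells were kept, with 649 to 34976 UMIs per cell and a median of 2143. There were 24 libraries over 3 sequencing runs, 4 for each stage and sort. Of 18335 distinct cell barcodes, 2117 occurred in 2 or more libraries. The 36 pairs of libraries of the same tumor sample and sort shared 1547 barcodes, where the product of their shares gives 195, and the 240 other pairs shared 1358 against 1226. Part of the cells of a tumor sample may therefore be counted in more than 1 library, and each test was also run with 1 library per shared barcode. Levels are given as CPM, the UMIs of a gene over all UMIs of a summed group of cells on the usual counts-per-million scale. UMIs mark the 3′ end of an mRNA and carry no length effect, but levels are compared within a gene, not between genes.

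The sorts were compared first, to place the genes in the nonimmune or the immune compartment. All 34 genes were lower in CD45+ than in CD45- cells in each of the 3 tumor samples and passed the test (edgeR quasi-likelihood test on 3 pairs of sums, tumor sample as a block, Benjamini-Hochberg over 18428 genes), against 25.7% of all genes tested that were lower. The median log2 difference was -4.71 over the 34 genes and -0.04 over all genes tested. For all 34 the CD45+ sums lay below every CD45- sum, which held for 41.4% of genes tested. Of the 34, Opalin, Hapln2, Gjb1, Mcam and Klk6 reached the count cutoff of the filter in fewer than 3 CD45+ sums. They were tested through the CD45- sums where they were high, so their calls give no support to a direction. Together the genes took 3.58%, 2.81% and 1.91% of CD45- UMIs from early to late and 0.136%, 0.101% and 0.146% of the CD45+ UMIs. Those CD45- sums held 50.5%, 40.7% and 30.8% oligodendrocyte-like cells, and in such sums fewer cells of a type and less RNA per cell cannot be told apart.

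In the compact myelin and membrane group, Mbp is myelin basic protein, which holds the cytoplasmic faces of the sheath together. It was at 2984, 2528 and 1701 CPM in early, medium and late CD45- cells and at 109, 77.6 and 129 CPM in CD45+ cells (log2 difference -4.15, SE 0.37, edgeR quasi-likelihood adjusted p = 0.000181). Cnp, a cyclic nucleotide phosphodiesterase of noncompact myelin, was at 2727, 2880 and 2202 CPM against 113, 139 and 140 CPM (-3.95, SE 0.31, edgeR quasi-likelihood adjusted p = 0.000126). Cldn11, the claudin of the tight junctions within myelin, was at 2712, 2213 and 1637 CPM against 57.4, 41.3 and 48.4 CPM (-5.10, SE 0.32, edgeR quasi-likelihood adjusted p = 0.000101). In all 3 genes the sorts stayed far apart, and the CD45- level was lowest in the late sample. Mal, a lipid raft proteolipid of the sheath, was at 2656, 1751 and 1104 CPM against 52.2, 12.996 and 28.9 CPM (-5.62, SE 0.45, edgeR quasi-likelihood adjusted p = 0.00014). Opalin, a membrane protein of the mature cell, had the largest difference of the group, at 278, 230 and 166 CPM against 4.90, 0.206 and 3.35 CPM (-6.21, SE 0.69, edgeR quasi-likelihood adjusted p = 0.000561), and was picked for that after its values were seen. It was tested through the CD45- sums, so its call gives no support to a direction.

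The promoters of Opalin, Mog, Cnp and Cldn11 are shown as examples of a late, a surface and 2 structural genes of the list. RefSeq windows of GRCm38.p6, from 250 bases before to 50 bases after a transcription start, matched 26 of the 34 genes with 36 promoters. Capitals mark, on either strand, ACAAAG (the core that Sox factors such as Sox10 bind, or CTTTGT) and the CTGGCAC and CTGGTAC forms of the motif of Myrf (or GTGCCAG and GTACCAG), and no marked matches overlap in the windows shown. The windows are chr19:41077064-41077363 on the minus strand for Opalin, chr17:37023349-37023648 on the minus strand for Mog, chr11:100574689-100574988 on the plus strand for Cnp and chr3:31149670-31149969 on the plus strand for Cldn11, each printed 5′ to 3′ along the gene.
Opalin promoter: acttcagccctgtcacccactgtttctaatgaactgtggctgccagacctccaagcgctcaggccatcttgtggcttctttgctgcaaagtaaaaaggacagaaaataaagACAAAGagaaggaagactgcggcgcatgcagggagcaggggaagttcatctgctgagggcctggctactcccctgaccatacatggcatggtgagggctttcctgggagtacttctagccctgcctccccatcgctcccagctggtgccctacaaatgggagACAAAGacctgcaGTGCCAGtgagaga
Mog promoter: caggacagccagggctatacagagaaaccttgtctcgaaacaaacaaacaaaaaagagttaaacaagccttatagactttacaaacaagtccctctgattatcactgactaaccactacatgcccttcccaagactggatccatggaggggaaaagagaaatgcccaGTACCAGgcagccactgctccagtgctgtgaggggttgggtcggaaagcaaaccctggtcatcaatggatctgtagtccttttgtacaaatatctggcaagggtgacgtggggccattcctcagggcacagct
Cnp promoter: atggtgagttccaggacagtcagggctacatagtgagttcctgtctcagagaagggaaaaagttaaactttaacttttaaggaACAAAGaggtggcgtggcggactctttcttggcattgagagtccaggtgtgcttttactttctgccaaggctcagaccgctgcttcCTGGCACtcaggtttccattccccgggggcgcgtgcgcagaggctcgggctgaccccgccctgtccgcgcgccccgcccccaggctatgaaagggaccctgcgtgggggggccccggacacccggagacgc
Cldn11 promoter: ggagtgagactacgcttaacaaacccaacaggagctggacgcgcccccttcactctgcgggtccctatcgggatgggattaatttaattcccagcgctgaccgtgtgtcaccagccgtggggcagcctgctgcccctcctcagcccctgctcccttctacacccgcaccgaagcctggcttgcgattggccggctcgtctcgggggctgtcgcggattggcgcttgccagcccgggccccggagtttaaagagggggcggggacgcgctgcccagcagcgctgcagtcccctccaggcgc
ACAAAG was present in 11 of the 36 promoters (30.6%) and in 18.7% of all 32851 promoters. CTGGCAC was in 6 of 36, those of Cnp, Gamt, Hapln2, Mag and Opalin, and in 5.01% of all, and CTGGTAC was in 1, that of Mog, and in 2.24% of all. These are matches of letters and not measured binding, and the Cldn11 window held no match.

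The other structural groups behaved alike between the sorts. The 5 adhesion, node and junction genes had a median log2 difference of -5.61. Of these 5, Hapln2, Gjb1 and Mcam were tested through the CD45- sums, so this median gives no support to a direction. The group includes Mag and Mog, adhesion molecules on the inner and the outer face of the sheath. It also holds Hapln2, a link protein of the node of Ranvier matrix, and Gjb1, a connexin of gap junctions within the sheath. The 5 cytoskeleton and scaffold genes (Ermn, Anln, Sept4, Plekhb1, Ppp1r14a), of which Anln and Sept4 belong to the septin scaffold of the sheath, had a median of -5.35. The 3 regulators (Myrf and Nkx6-2, transcription factors of maturation, and Grb14, an adaptor of insulin signalling) had a median of -4.47.

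Among the 7 lipid and small-molecule enzymes the median was -4.74. Enpp2, the secreted enzyme autotaxin that makes lysophosphatidic acid, was at 4653, 2772 and 1569 CPM in CD45- and 75.8, 76.5 and 96.0 CPM in CD45+ cells (-4.69, SE 0.47, edgeR quasi-likelihood adjusted p = 0.000304). Car2, carbonic anhydrase 2, was at 2851, 1913 and 1112 CPM against 47.2, 18.9 and 21.8 CPM (-5.72, SE 0.35, edgeR quasi-likelihood adjusted p = 0.000101). Gamt, which makes creatine, had the smallest difference of these enzymes, with 124, 111 and 113 CPM against 15.9, 17.3 and 24.97 CPM.

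The secreted, chaperone and iron genes had the widest range. Apod, a lipid carrier, was at 1768, 1436 and 1033 CPM against 43.3, 43.5 and 57.2 CPM (-4.49, SE 0.35, edgeR quasi-likelihood adjusted p = 0.000129). Ndrg2, a cytoplasmic protein also known from astrocytes, was at 486, 418 and 242 CPM against 21.4, 41.3 and 27.4 CPM (-3.29, SE 0.35, edgeR quasi-likelihood adjusted p = 0.000376). Trf, transferrin, the iron carrier, had the smallest difference of the 34 genes and was picked for that after its values were seen. It was at 1183, 974 and 840 CPM in CD45- and at 430, 253 and 572 CPM in CD45+ cells (-0.96, SE 0.32, edgeR quasi-likelihood adjusted p = 0.0440). The sorts did not overlap, but in the late sample the CD45+ level was closest to the CD45- level. The Trf call was lost in 5 alternatives, among them the fit without the early sample (edgeR quasi-likelihood adjusted p = 0.209), without the medium sample (0.256) and without the tumor block (0.0519).

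Mcam, a cell adhesion molecule of vessels and Schwann cells, was the 1 gene of the named set that was highest in the late CD45- sum, with 77.0, 108 and 233 CPM against 1.02, 13.9 and 9.88 CPM in CD45+ cells (-4.01, SE 0.60, edgeR quasi-likelihood adjusted p = 0.00191). Mcam too was tested through the CD45- sums, so its call gives no support to a direction.

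**Figure D1:**
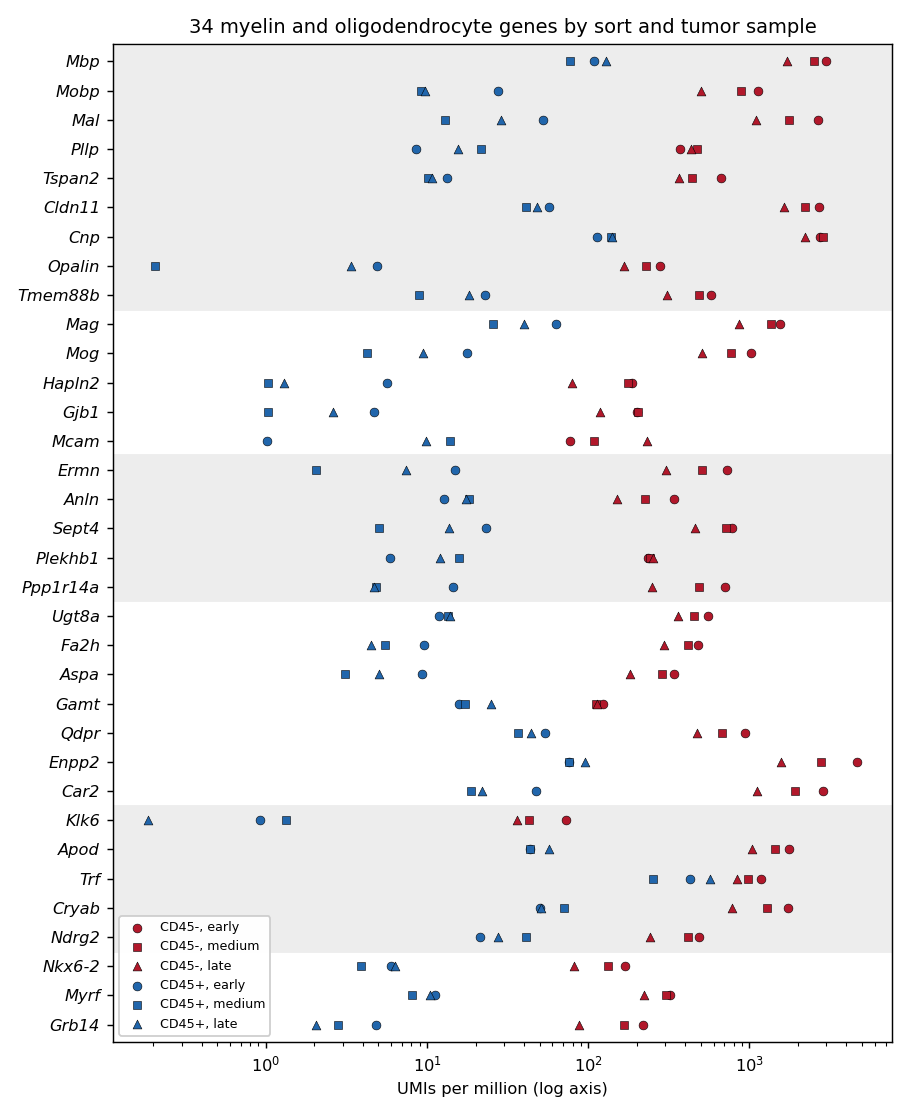
CPM on a log axis for each of the 34 genes, with 1 point for each of the 3 tumor samples in CD45- and CD45+ cells. The CD45+ points lie below the CD45- points of every gene, and those of Trf come closest, with 572 against 840 CPM in the late sample.

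Genes of the same lineage that are not on the list were read from 4 further lists. Of 10 committed precursor genes 7 were lower and 2 higher in CD45+ cells, where 25.7% and 20.4% of all genes tested were, so the count of higher genes does not stand apart. Of 26 other myelin and oligodendrocyte genes 20 were lower, and all 8 lineage transcription factors and all 10 genes of myelin lipid synthesis were lower (edgeR quasi-likelihood test, Benjamini-Hochberg). The medians were -2.54, -3.79, -3.94 and -1.53. Of those lower, 4 other myelin genes, 2 factors and 1 lipid synthesis gene did not reach the filter cutoff in every CD45+ sum. These genes were tested through the CD45- sums where they were high, so their calls give no support to a direction. Among the lowest values was that of Il33, an alarmin (-5.35). At the other end, Itpr2, a calcium channel of the endoplasmic reticulum (0.98, SE 0.34, edgeR quasi-likelihood adjusted p = 0.0497), and Rras2, a small GTPase (0.82, SE 0.25, edgeR quasi-likelihood adjusted p = 0.0305), were higher in CD45+ cells. Bin1, a membrane-bending protein, was at 0.38 and missed the threshold (edgeR quasi-likelihood adjusted p = 0.319).

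Cells were then grouped into classes from markers that were kept apart from the 34 genes, and the 34 genes were left out of the clustering. The 2782 oligodendrocyte-like cells, in clusters 0, 4 and 31, carried Gpr37 at 1794 CPM against 29.7 CPM in the other cells, Cntn2 at 864 against 10.3 and Adamts4 at 289 against 12.5. These markers gave the clusters their name, so the values are a description. Of these cells 23 held a UMI of the human EGFR transgene (0.827%). Over all tumor samples and both sorts, 30 of the 34 genes had their highest class level in the oligodendrocyte-like cells. This is a description across classes of at least 50 cells and has no test.

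The gap to the next class differed by gene. It was widest for Mag, with 3735 CPM in oligodendrocyte-like and 207 CPM in astrocyte-like cells (18.0-fold), and for Mobp (16.0-fold). Cnp was at 6805 CPM against 1313 CPM in the glioma or progenitor-like class (5.18-fold), and Cldn11 at 6016 CPM against 1027 CPM in fibroblast-like cells (5.86-fold). The narrowest gaps were those of Pllp, a proteolipid, with 841 CPM against 550 CPM in the glioma or progenitor-like class (1.53-fold), and of Gamt, with 240 CPM against 138 CPM in mural-like cells (1.74-fold).

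For 4 genes another class was higher. Enpp2 was at 18758 CPM in choroid plexus-like cells and 3363 CPM in oligodendrocyte-like cells. Apod was at 4974 CPM in fibroblast-like and 3502 CPM in oligodendrocyte-like cells. Ndrg2 was at 1577 CPM in astrocyte-like, 681 CPM in ependymal-like and 489 CPM in oligodendrocyte-like cells. Mcam was at 537 CPM in mural-like cells, 464 CPM in the unnamed cluster 9 and 150 CPM in oligodendrocyte-like cells. The CD45- sums of these genes therefore held UMIs of several classes, and a difference between stages in those sums cannot be told apart from the makeup of the sort.

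**Figure D2:**
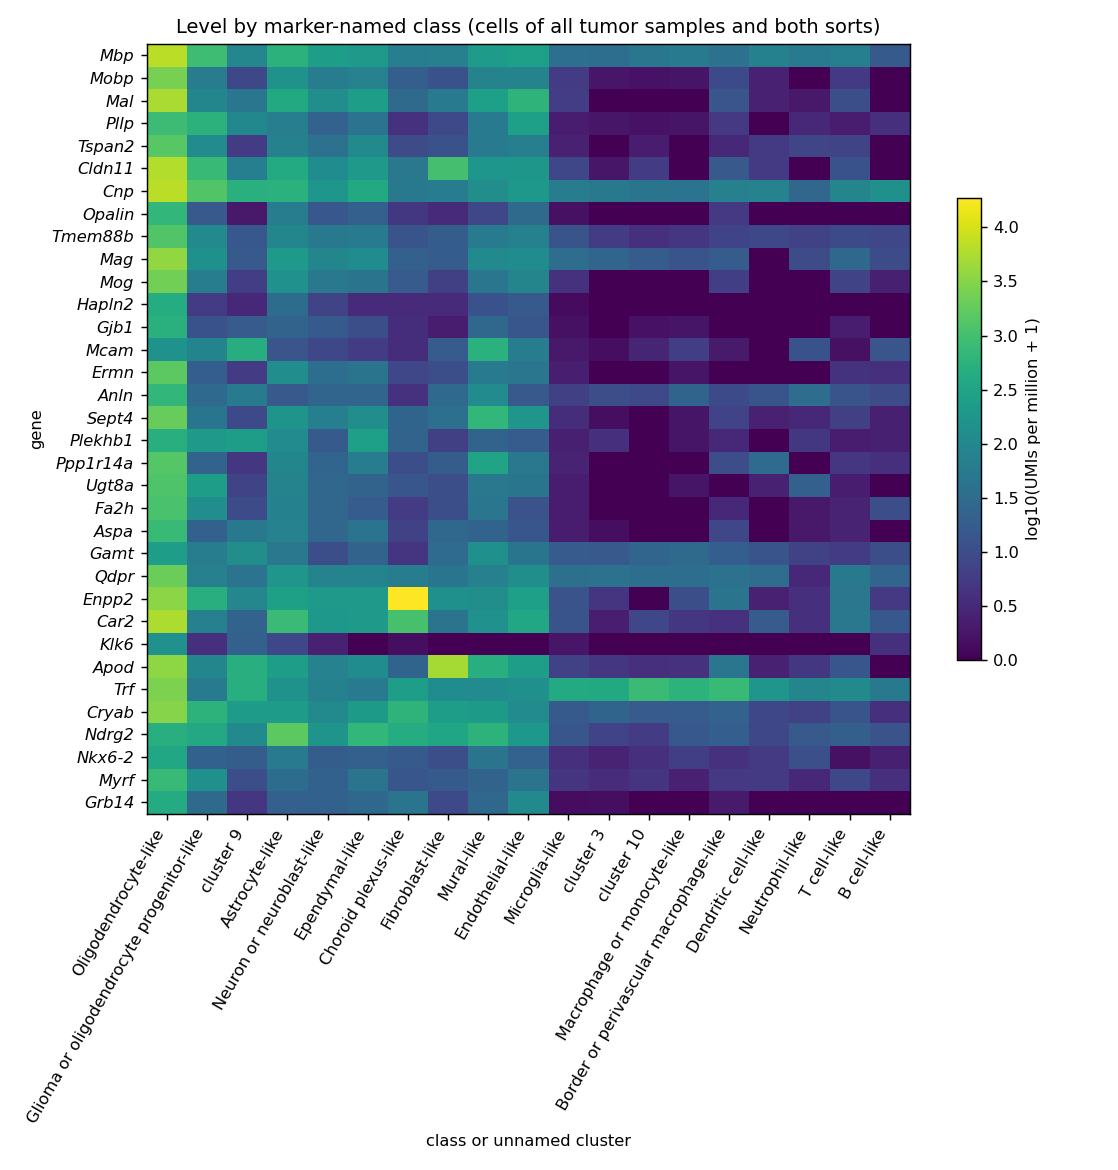
Heat map of log10 (CPM + 1) for the 34 genes (rows, by role) over classes of at least 50 cells (columns), with all tumor samples and both sorts together. The oligodendrocyte-like column is the highest for 30 genes, and Enpp2, Apod, Mcam and Ndrg2 are higher in choroid plexus-like, fibroblast-like, mural-like and astrocyte-like cells.

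Within the oligodendrocyte-like cells of the CD45- sort (1374, 652 and 695 cells), the 34 genes took 67314, 70500 and 76988 CPM at the early, medium and late stages. Stages have 1 sample each, so their values are set side by side without a test. Mbp was at 6300, 7188 and 6686 CPM, Mal at 5637, 5054 and 5657 CPM and Car2 at 5590, 5414 and 5516 CPM, with no fixed order of the stages. None of these levels per oligodendrocyte-like UMI fell from early to late as far as the CD45- sum of the same gene. Only that of Car2 was lower in the late than in the early sample. Cnp stood at 5735, 7238 and 8335 CPM, Pllp at 687, 902 and 1079 CPM and Opalin at 592, 668 and 857 CPM. Trf was at 2350, 2746 and 3359 CPM and Ndrg2 at 545, 468 and 413 CPM. Of the 34 genes 14 were in ascending order from early to late, Cnp, Pllp, Opalin and Trf among them, 4 were in descending order, Ndrg2 among them, and 16 in neither. The share of all genes in each order is not given, so these counts are not read as a stage trend of the list. The share of oligodendrocyte-like cells depends on the sort and on the removal of myelin, and neither was varied here.

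The 3 oligodendrocyte-like clusters differed in depth and in a few genes. Cluster 4 held 30.1% (95% exact binomial interval 27.6 to 32.6), 35.0% (31.3 to 38.8) and 46.8% (43.0 to 50.6) of the CD45- oligodendrocyte-like cells from early to late. Cluster 0 held 65.5%, 58.4% and 48.1%, and the small cluster 31 held 4.44%, 6.60% and 5.18%. These intervals, like all those over cells or UMIs given here, hold the counting error alone, without any variation among mice. The median depth was 3530, 4322.5 and 3265 UMIs in cluster 4 and 1847.5, 2312 and 1934 UMIs in cluster 0, and the part of depth in the split was not tested. Outside the list, cluster 4 was led by Slc25a27, Hcn2 and S1pr5, and cluster 0 by Il33 and Ptgds. The early cells of cluster 0 also held Hbb-bs, a hemoglobin of red blood cells, at 3605 CPM.

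Klk6, a secreted protease of mature oligodendrocytes, set the clusters apart most. It was at 296, 213 and 207 CPM in cluster 4 and at 42.6, 30.9 and 68.2 CPM in cluster 0, ratios of 6.95, 6.90 and 3.04. Apod was at 4197, 4073 and 4157 CPM against 2911, 2382 and 3033 CPM. Hapln2 was at 480, 627 and 450 CPM against 345, 415 and 348 CPM. Opalin ran the other way, with 452, 451 and 762 CPM in cluster 4 and 714, 910 and 1006 CPM in cluster 0. The main structural genes hardly differed, with ratios of 1.12, 1.07 and 1.13 for Mbp and 1.06, 1.02 and 1.05 for Cnp. In all, 17 of the 34 genes were higher in cluster 4 in all 3 tumor samples, 11 were lower in all 3 and 6 varied in direction. No share over all genes is given beside these counts, so they are not read as a trait of the list. The cells were clustered on other genes of the same cells, so these ratios are a description and not a test.

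**Figure D3:**
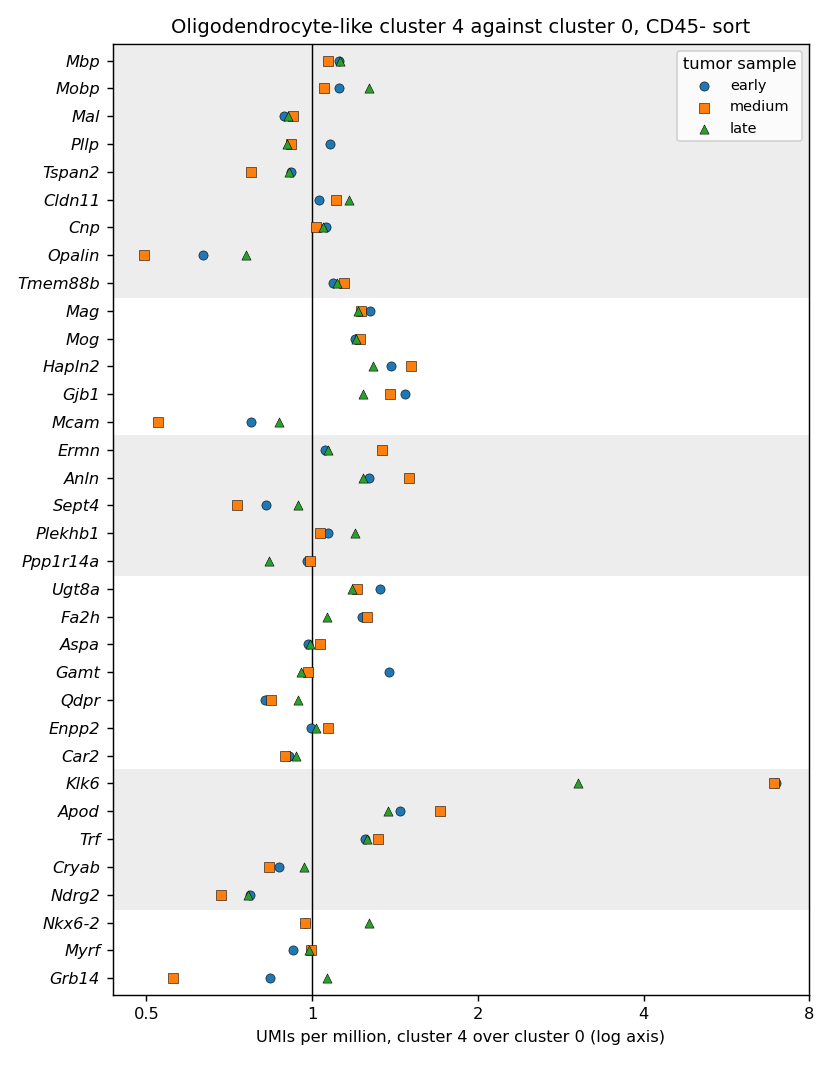
Ratio of the CPM level in cluster 4 to that in cluster 0 of the oligodendrocyte-like CD45- cells, on a log axis, with 1 point per tumor sample for each gene. Most genes lie near a ratio of 1, Klk6 lies at 3.04 to 6.95 and Opalin at 0.50 to 0.76.

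Tumor cells were read from the EGFR transgene. EGFR-carrying glioma-like cells are cells of the glioma or progenitor-like clusters with at least 1 UMI of human EGFR, 300 of them medium and 452 late. No early cell of these clusters held such a UMI, so the early sample was left out. They were compared with endothelial-like cells of the same CD45- sorts (126 and 66 cells), whose level of these genes was the comparison and may hold free RNA, carry-over and expression of their own. With 2 tumor samples the test was weak: in simulated counts it recovered 62% of genes changed 4-fold and 5% of genes changed 2-fold. The 34 genes summed to 6485 and 7391 CPM in the glioma-like cells, to 2892 and 2110 CPM in the endothelial-like cells and to 70500 and 76988 CPM in oligodendrocyte-like cells of the same samples. The median depth was 6544.5 and 4392.5 UMIs in the glioma-like and 1500 and 1559 UMIs in the endothelial-like cells. The endothelial-like sums held 214058 (medium) and 126989 (late) UMIs, so low CPM values there rest on a few UMIs.

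Of 32 genes that passed the filter on low counts (Hapln2 and Klk6 did not), 10 were higher in the EGFR-carrying glioma-like cells, against 7.9% of the 11671 genes tested, and 3 were lower, against 7.63%. Cnp was at 1300 CPM (medium) and 1576 CPM (late) in the glioma-like cells and at 126 and 39.4 CPM in the endothelial-like cells (4.00, SE 0.44, edgeR quasi-likelihood adjusted p = 7.39e-05). Cldn11 was at 798 and 994 CPM against 121 and 39.4 CPM (3.35, SE 0.42, edgeR quasi-likelihood adjusted p = 5.51e-05). Cryab, a small heat shock chaperone, was at 777 and 404 CPM against 37.4 and 31.5 CPM (3.96, SE 0.41, edgeR quasi-likelihood adjusted p = 5.74e-08). In each of these genes both glioma-like sums lay above both endothelial-like sums. Enpp2, at 419 and 486 CPM against 182 and 110 CPM (1.50, SE 0.36, edgeR quasi-likelihood adjusted p = 0.00376), and Ndrg2, at 385 and 297 CPM against 187 and 78.8 CPM (1.28, SE 0.38, edgeR quasi-likelihood adjusted p = 0.0201), had the smallest of the 10 differences.

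Of the 7 lipid and small-molecule enzymes 3 were higher (Ugt8a, Fa2h and Enpp2) and 1 lower (Car2), and of the 3 regulators 1 was higher (Myrf) and 1 lower (Grb14) by the edgeR quasi-likelihood test. The shares over all genes tested were 7.9% higher and 7.63% lower. Ugt8a, which makes galactocerebroside, the main glycolipid of myelin, was at 146 and 333 CPM against 14.01 and 39.4 CPM (3.08, SE 0.52, edgeR quasi-likelihood adjusted p = 9.83e-05). Fa2h, the fatty acid hydroxylase of the same lipids, was at 123 and 139 CPM, against 1 UMI (4.67 CPM) and 0 UMIs in the endothelial-like cells. It passed the filter through the glioma-like sums alone, so it is among the 10 higher genes but its call gives no support to a direction. Myrf, the transcription factor of myelin genes, was at 96.8 and 215 CPM against 9.34 and 23.6 CPM (3.13, SE 0.64, edgeR quasi-likelihood adjusted p = 0.00078). Plekhb1, a membrane-associated protein, was at 204 and 229 CPM against 14.01 and 23.6 CPM (3.44, SE 0.56, edgeR quasi-likelihood adjusted p = 5.78e-05). The endothelial-like values of Ugt8a, Myrf and Plekhb1 also rest on a few UMIs. Tmem88b, a membrane protein of myelin, was at 108 and 135 CPM against 23.4 CPM and 0 UMIs. It too was tested through the glioma-like sums, since 1 endothelial-like sum reached the cutoff of the filter.

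The genes that were lower were Sept4, at 47.5 and 17.3 CPM against 182 and 142 CPM (-2.58, SE 0.52, edgeR quasi-likelihood adjusted p = 0.000685), Car2, at 90.1 and 15.7 CPM against 224 and 236 CPM (-2.66, SE 0.60, edgeR quasi-likelihood adjusted p = 0.00955), and Grb14, at 36.9 and 15.3 CPM against 107 and 86.6 CPM (-2.11, SE 0.60, edgeR quasi-likelihood adjusted p = 0.0148). Mal, at 148 and 9.03 CPM against 528 and 268 CPM, missed the threshold (-3.32, SE 0.99, edgeR quasi-likelihood adjusted p = 0.176). It was called lower in 6 of the 9 settings run, over which its log2 difference lay between -3.81 and -2.46. Its endothelial-like level was the second highest of any class, 607 CPM over all samples. Pllp was at 366 and 668 CPM against 276 and 150 CPM (1.09, SE 0.40, edgeR quasi-likelihood adjusted p = 0.0906) and was called in 2 of 9 settings. Apod missed the threshold (-2.32, SE 1.25, edgeR quasi-likelihood adjusted p = 0.415) but was called lower in 4 of 9 settings. Mag missed it too (1.37, SE 0.78, edgeR quasi-likelihood adjusted p = 0.325) and was called higher in 2 of 9. Anln and Tspan2, also not called with the reported settings, were called higher in 1 of 9 each. The calls of Car2, Grb14 and Ndrg2 were lost without the tumor block (edgeR quasi-likelihood adjusted p = 0.145, 0.0587 and 0.141). Those of Enpp2, Tmem88b, Grb14 and Ndrg2 were lost with DESeq2 (DESeq2 adjusted p = 0.102, 0.0796, 0.194 and 0.256), that of Cryab without the top 5% of doublet scores (edgeR quasi-likelihood adjusted p = 0.0599) and that of Ndrg2 with cluster 9 added (0.0776).

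Mbp missed the threshold and was unequal in the 2 tumor samples. Medium glioma-like cells held it at 318 CPM and late ones at 1310 CPM, against 126 and 23.6 CPM in the endothelial-like cells (2.89, SE 1.95, edgeR quasi-likelihood adjusted p = 0.622), and it passed in 2 of 9 settings, with DESeq2 (DESeq2 adjusted p = 0.0112) and without TMM factors (edgeR quasi-likelihood adjusted p = 1.73e-12). The 2 samples also differed in the clusters of the class, since 73.3% of the medium cells were in cluster 16, which held 0 late cells, and 70.4% of the late cells were in cluster 12. Within cluster 12, Mbp was at 392 CPM in 60 medium and 1782 CPM in 318 late cells, and Mal at 53.0 and 9.92 CPM. Cluster 16 held 256 of the 308 medium Mal UMIs, at 168 CPM. Mog was at 94.4 and 42.02 CPM in medium and late glioma-like cells against 60.7 and 39.4 CPM in the endothelial-like cells (edgeR quasi-likelihood adjusted p = 0.850), and Trf at 82.4 and 9.82 CPM against 74.7 and 110 CPM (edgeR quasi-likelihood adjusted p = 0.260). Neither passed the threshold, and Trf was called lower in 1 of 9 settings.

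The clusters of the class divided these values. Among EGFR-carrying cells, cluster 12 (378 cells), led by the committed precursor genes Gpr17, Bcas1 and Bmp4, held Cnp at 2170 CPM, Mbp at 1531 CPM, Cldn11 at 1232 CPM, Pllp at 763 CPM, Myrf at 280 CPM and Mag at 224 CPM, but Opalin at 4.78 CPM and Mal at 17.7 CPM. Cluster 16 (220 cells) held Cnp at 1161 CPM and Mbp at 316 CPM, with the highest Cryab of the clusters, 802 CPM. Cluster 29 (129 cells), led by genes of cell division such as Aspm and Ccnb1, held Cnp at 403 CPM and Mbp at 294 CPM. Cells of cluster 15 without an EGFR UMI (149 early, 85 medium and 90 late cells), a cluster led by Susd5, C1ql2 and Gpc5, held Pllp at 782, 867 and 1002 CPM and Cnp at 492, 274 and 416 CPM. Pllp was thus at least as high there as in the EGFR-carrying cells. Cnp was lower there than in clusters 12 and 16, but not throughout lower than the 403 CPM of cluster 29. A missing EGFR UMI does not show that a cell lacks the transgene.

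In the same contrast, 7 of the 10 committed precursor genes tested, 9 of 20 other myelin and oligodendrocyte genes, all 7 lineage transcription factors tested and 2 of 9 lipid synthesis genes (Hmgcs1 at 1.81 and Fasn at 3.46) were higher, and 0 were lower (edgeR quasi-likelihood test, Benjamini-Hochberg). Of all genes tested 7.9% were higher and 7.63% lower. Olig1 and Olig2, 2 of the 7 factors, are themselves markers that named the class, so their calls follow from the naming. In 5 of the 7 precursor genes, 4 of the 9 other myelin genes and all 7 factors that were higher, fewer than 2 endothelial-like sums reached the cutoff of the filter, and Gpr17, Neu4, Tmem163, Nkx2-2 and Zfp488 had 0 UMIs there. These genes were tested through the glioma-like sums where they were high, so the counts give no support to a direction.

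A second population of EGFR-carrying cells, the unnamed cluster 9 (471 such cells in the late sample), was led by matrix genes such as Itga8, Thbs2 and Tnc and was kept out of the glioma-like class. It held Trf at 503 CPM, Apod at 493 CPM, Mcam at 488 CPM and Gamt at 124 CPM, and its 34 genes summed to 3383 CPM. Trf in these cells stood above the 9.82 CPM of the late EGFR-carrying glioma-like cells.

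**Figure D4:**
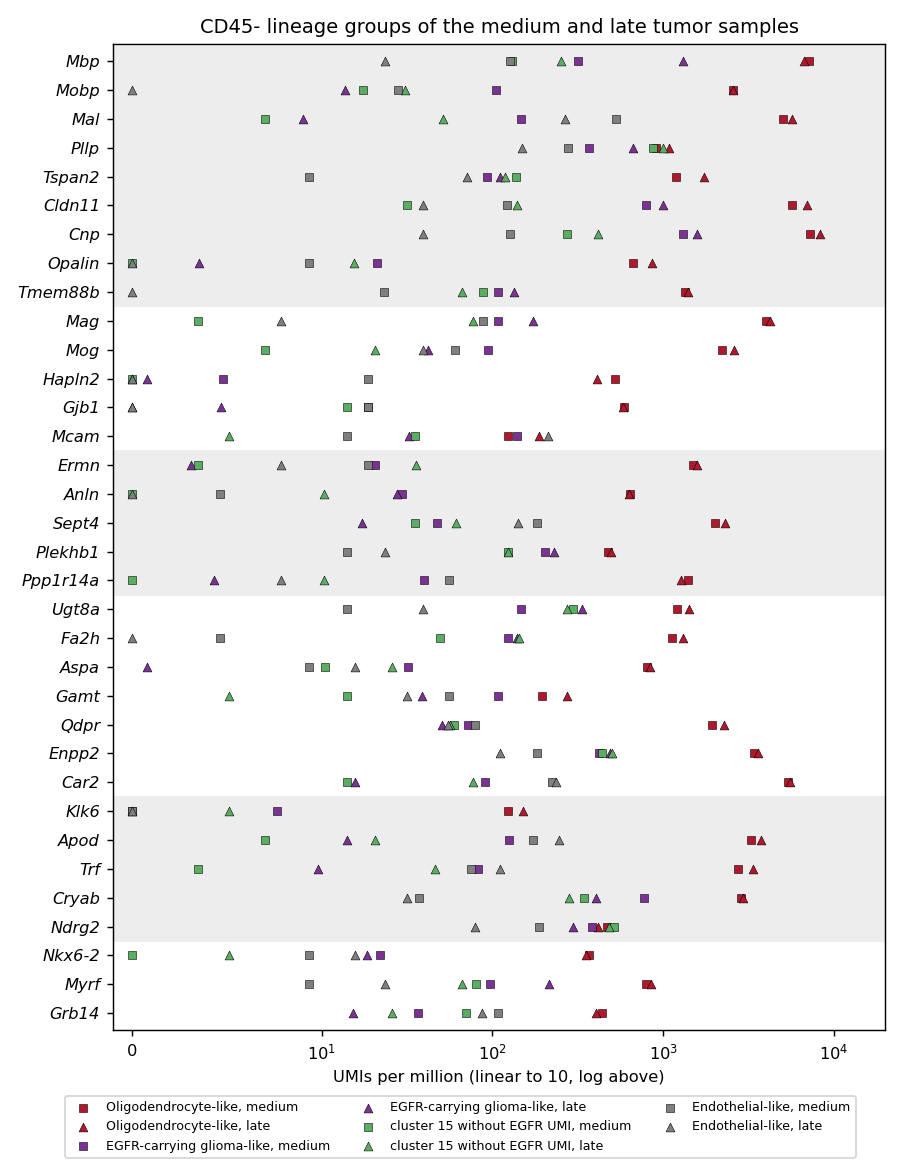
CPM (linear to 10, log above) of the 34 genes in the medium and late CD45- samples, for oligodendrocyte-like, EGFR-carrying glioma-like, cluster 15 without an EGFR UMI and endothelial-like cells. Oligodendrocyte-like cells are highest for nearly all genes, and Cnp, Cldn11 and Cryab of the glioma-like cells stand above the endothelial-like level in both samples.

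In the CD45+ sort the 34 genes had 32381 UMIs. Of these, 26.5% came from 61 oligodendrocyte-like cells, 24.5% from 5835 microglia-like cells, which were 52.2% of the CD45+ cells, and 14.6% from 223 glioma or progenitor-like cells. Trf alone gave 10169 of these UMIs, 4902 of them microglia-like, and over the other 33 genes the 3 shares were 36.8%, 13.6% and 21.02%. The oligodendrocyte-like share was 44.4% in the early sample, where 47 such cells (0.923% of the sort) were caught, and 8.50% in the medium sample. The medium and late samples held 7 such cells each (0.176% and 0.333% of the sort). With oligodendrocyte-like cells taken out of the CD45+ sums alone, all 34 genes were lower in the CD45+ sort, with a median of -5.52. These cells are rich in the 34 genes and were kept in the CD45- sums, so this outcome was fixed in advance.

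The rest was read against T cell-like cells, which are not known to make or clear myelin. Their level was the comparison and may hold more than free RNA. After thinning each cell to 1000 UMIs, 34.03% of the T cell-like, 44.7% of the microglia-like, 49.2% of the macrophage or monocyte-like and 22.7% of the neutrophil-like CD45+ cells held at least 1 UMI of the 34 genes (50.6%, 65.1%, 69.9% and 38.5% unthinned). Microglia-like cells of the CD45- sort reached 67.3%, above the 44.7% of the same class in the CD45+ sort, so the sort itself moved with this share. With Trf left out, the other 33 genes summed to 262, 256 and 223 CPM in microglia-like and to 652, 353 and 381 CPM in T cell-like CD45+ cells of the early, medium and late samples, so the microglia-like sum was the lower in each. In the early T cell-like sum 1 cell of 314 held 220 of the 497 UMIs of the 34 genes.

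Of the 34 genes, 11 passed the filter on low counts for the comparison of microglia-like (3980, 871 and 984 cells) with T cell-like cells (314, 409 and 117 cells). Of these 2 were higher in microglia-like cells, where 17.9% of the 10416 genes tested were, and 2 were lower, where 21.3% were, so neither count stands apart from that of all genes. Trf was at 423, 335 and 438 CPM in microglia-like and 92.9, 110 and 145 CPM in T cell-like cells (1.76, SE 0.18, edgeR quasi-likelihood adjusted p = 3.05e-05). Microglia-like cells held 18.0%, 12.2% and 13.03% of the oligodendrocyte-like Trf level and T cell-like cells 3.95%, 4.02% and 4.32%. A Trf UMI was seen in 52.6%, 42.0% and 52.5% of microglia-like and in 12.1%, 16.4% and 18.8% of T cell-like cells, at median depths of 1946, 1756 and 1820.5 and of 1830.5, 1925 and 1772 UMIs. Trf was higher in every alternative that was run.

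Gamt was at 15.7, 14.1 and 15.9 CPM in microglia-like cells and at 8.99, 2.19 and 3.63 CPM in T cell-like cells, from 6, 2 and 1 UMIs in the latter (1.58, SE 0.56, edgeR quasi-likelihood adjusted p = 0.0461). The Gamt call was lost without the medium sample (edgeR quasi-likelihood adjusted p = 0.247), without the late sample (0.0635), with 1 library per shared barcode (0.0533) and with DESeq2 (0.152). Car2 was lower, at 7.06, 1.23 and 0.995 CPM against 31.5, 72.2 and 10.9 CPM (-3.36, SE 0.61, edgeR quasi-likelihood adjusted p = 0.0014), and so was Enpp2, at 9.86, 2.45 and 1.99 CPM against 22.5, 76.6 and 14.5 CPM (-2.73, SE 0.63, edgeR quasi-likelihood adjusted p = 0.00613). The UMIs of Car2 and Enpp2 in T cell-like cells were unevenly spread. In the early sample a single cell held 14 of 21 Car2 and 12 of 15 Enpp2 UMIs, whereas in the medium sample 66 Car2 UMIs lay in 30 cells and 70 Enpp2 UMIs in 37 cells. When the cell richest in the 34 genes was left out of each sum, Trf, Gamt, Mag and Cryab were higher and Car2 lower, and the Enpp2 call was lost (edgeR quasi-likelihood adjusted p = 0.173). It was also lost without the medium sample (0.0786), without the late sample (0.0723) and with the 34 genes kept among the clustering genes (0.116), while that of Car2 held in every alternative run. Gamt reached the count cutoff of the filter in 3 microglia-like and 1 T cell-like sum, Enpp2 in 1 and 3 and Car2 in 0 and 3, so each of these genes was tested through the group where it was high, and its call gives no support to a direction.

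With the reported settings none of the structural genes tested passed. Only 3 of 9 compact myelin and membrane genes, 1 of 5 adhesion, node and junction genes and 0 of 5 scaffold genes were tested. The others were below the filter on low counts. Mbp, whose locus also gives golli transcripts known from immune cells that a count per gene cannot tell apart, was at 30.6, 38.6 and 26.4 CPM in microglia-like and 123, 27.3 and 68.9 CPM in T cell-like cells (-1.11, SE 0.44, edgeR quasi-likelihood adjusted p = 0.0727). Cnp was at 53.2, 62.5 and 67.7 CPM against 114, 66.7 and 87.0 CPM (-0.59, SE 0.25, edgeR quasi-likelihood adjusted p = 0.0913). Mag was at 30.8, 30.6 and 33.3 CPM against 52.4, 10.9 and 14.5 CPM (0.29, SE 0.45, edgeR quasi-likelihood adjusted p = 0.643). Qdpr, a reductase of biopterin, was at 36.0, 39.2 and 31.8 CPM against 55.4, 43.8 and 79.8 CPM (-0.70, SE 0.29, edgeR quasi-likelihood adjusted p = 0.0779). The T cell-like values ranged widely in these genes, and the early ones rest in part on 1 cell, which held 23 of 35 Mag UMIs. Mag was higher in microglia-like cells in 3 of 12 settings, which were without the early sample (1.39, edgeR quasi-likelihood adjusted p = 0.0455), without the richest cell (1.05, 0.0321) and with the 34 genes kept among the clustering genes (1.10, 0.0276). Mbp was lower in 3 of 12, which were without the medium sample (-1.80, edgeR quasi-likelihood adjusted p = 0.00217), without the top 5% of doublet scores (-1.31, 0.0254) and with every gene of at least 1 count (-0.94, 0.00786). Tspan2, below the filter with the reported settings, was lower in 1 of the 2 settings that tested it.

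Relative to oligodendrocyte-like cells, the genes did not stand at 1 common level in microglia-like cells. Cnp was at 0.93%, 0.86% and 0.81% of the oligodendrocyte-like level, Mag at 0.93%, 0.77% and 0.79%, Tmem88b at 0.82%, 0.73% and 0.82% and Mbp at 0.49%, 0.54% and 0.39%. Against these, Mal was at 0.080%, 0% and 0.0088%, Cldn11 at 0.11%, 0.011% and 0%, Mog at 0.105%, 0.056% and 0% and Car2 at 0.13%, 0.023% and 0.018%. The first genes were nearly level over the 3 tumor samples, and the second, all abundant in oligodendrocytes, were several times lower and highest in the early sample. The cause of this spread was not tested.

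Pathway genes outside the list were mostly below the filter in these cells. Of the 4 committed precursor genes tested 2 were higher and 1 lower in microglia-like cells, of 13 other myelin and oligodendrocyte genes 4 were higher and 2 lower, and of 7 lipid synthesis genes 0 were higher and 2 lower (edgeR quasi-likelihood test, Benjamini-Hochberg). Of all genes tested 17.9% were higher and 21.3% lower, and counts this small do not stand apart from these shares. Tcf7l2 among the higher and Fyn, Gsn and Fdps among the lower genes reached the cutoff of the filter in fewer than 3 sums of the other group. No lineage transcription factor passed the filter.

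**Figure D5:**
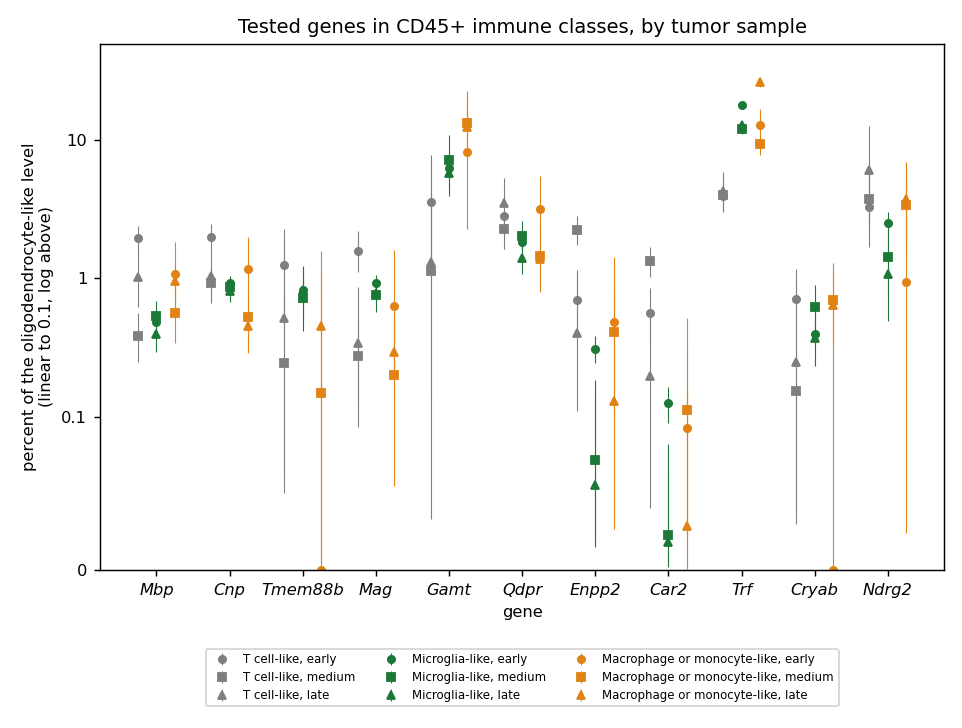
Level of the 11 genes tested in microglia-like, T cell-like and macrophage or monocyte-like CD45+ cells, as percent of the oligodendrocyte-like level of the same tumor sample (linear to 0.1, log above), with bars for the exact Poisson 95% interval. Trf lies at 9.43% to 26.7% in both myeloid classes and near 4% in T cell-like cells, and Cnp, Mag and Mbp lie near or below 1% in microglia-like cells.

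Macrophage or monocyte-like cells numbered 85, 220 and 230. They came mostly from cluster 18 (led by Ly6i and Ear6) in the early and medium samples and from cluster 27 (led by Rnase2a, Retnla, Ear2 and Arg1) in the late sample. With 7 of the 34 genes tested, 2 were higher than in T cell-like cells, where 8.38% of the 7421 genes tested were, and 0 were lower by the adjusted edgeR test, where 5.74% were, though 1, Cnp, was lower at an unadjusted p under 0.05 (-0.80, SE 0.33). DESeq2 called 1 of 12 genes tested higher and 0 lower. Trf was at 306, 259 and 896 CPM against 92.9, 110 and 145 CPM (1.97, SE 0.31, edgeR quasi-likelihood adjusted p = 0.00157), which is 13.01%, 9.43% and 26.7% of the oligodendrocyte-like level. A Trf UMI was present in 42.4%, 35.0% and 77.4% of the cells, and the high late value moved with the change of cluster. Gamt was at 20.7, 26.1 and 34.5 CPM, from 4, 13 and 22 UMIs, against 8.99, 2.19 and 3.63 CPM (2.60, SE 0.72, edgeR quasi-likelihood adjusted p = 0.0357). Gamt reached the count cutoff of the filter in 0 T cell-like sums, so it was tested through the macrophage or monocyte-like sums alone and its call gives no support to a direction. The Gamt call was lost without the early sample (edgeR quasi-likelihood adjusted p = 0.0555), without the late sample (0.0971) and with DESeq2 (0.143). Gamt fell below the filter in the other settings that did not call it, which were without the medium sample, with the 34 genes kept among the clustering genes, without the top 5% of doublet scores and without the richest cell.

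Mbp was at 67.4, 40.1 and 64.2 CPM in macrophage or monocyte-like cells and did not differ detectably (-0.02, edgeR quasi-likelihood adjusted p = 0.984). Cnp was at 67.4, 38.1 and 37.6 CPM (edgeR quasi-likelihood adjusted p = 0.144) and Qdpr at 62.2, 28.1 and 31.3 CPM (-0.50, edgeR quasi-likelihood adjusted p = 0.487). Enpp2 and Car2 did not pass the filter on low counts with the reported settings. Enpp2 was called lower in 2 of the 5 alternatives that tested it and Car2 in 3 of 4. The class held 13 Enpp2 and 5 Car2 UMIs against 89 and 90 in T cell-like cells, so these calls too rest on the group where the genes are high and give no support to a direction. No UMI was seen in the 3 macrophage or monocyte-like sums for Aspa, Cldn11, Fa2h, Grb14, Hapln2, Klk6, Mal, Mog, Opalin, Ppp1r14a and Tspan2. At this depth a difference in these genes was not detectable. Of the pathway lists, 1 of 4 committed precursor genes tested was higher and 1 lower, 2 of 8 other myelin and oligodendrocyte genes were higher and 1 lower, and of 6 lipid synthesis genes 0 passed (edgeR quasi-likelihood test). Of all genes tested 8.38% were higher and 5.74% lower, and counts this small do not stand apart from these shares. Tcf7l2 and Gsn, among the higher genes, reached the cutoff of the filter in 0 and 2 T cell-like sums.

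Trf was also above its T cell-like level in some other myeloid groups. Over all samples it was at 792 CPM in border or perivascular macrophage-like cells and at 809 CPM in the unnamed cluster 10, led by Spp1, Gpnmb, Igf1 and Apoc1. After thinning, 49.2% of border or perivascular macrophage-like, 48.1% of cluster 10, 36.6% of macrophage or monocyte-like, 32.2% of microglia-like and 9.36% of T cell-like cells held a Trf UMI. The neutrophil-like cells (8.59%) and the unnamed cluster 32 led by Elane and Mpo (9.30%) were close to the T cell-like cells. In cluster 10 the level was 424, 585 and 923 CPM from early to late. These values have no test of their own.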

How the data were processed

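The data were inDrop single-cell RNA sequencing of CD45+ and CD45- cells from 3 tumor samples. The authors mapped reads with RapMap in bcbio-nextgen to a GRCm38 transcriptome with transgenes added, called cells against empty droplets and deposited raw UMI counts per gene and cell (50262 genes, 20811 cells). The library annotation deposited by the authors (unit: other) gave run, sort and stage. The methods describe removal of ambient RNA and doublets without stating whether it preceded the table, and whether counting used strand was not given in the sources used here. Mbp, Pllp, Tspan2, Cnp, Mog, Mcam, Ermn, Qdpr, Enpp2, Cryab and Nkx6-2 overlap an annotated gene, coding or not, on the other strand, and Sept4, Trf, Mobp and Anln one on the same strand, so part of their counts is uncertain.

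Cells with at least 500 UMIs, at least 500 genes and at most 20% mitochondrial UMIs were kept (17894), and Scrublet doublets were removed (139 of 17786 cells scored, 0.782%, in libraries of at least 100 cells). Cells were clustered with scanpy 1.11.5 and leidenalg 0.10.2 (2000 variable genes without the members, 40 components, 20 neighbours, resolution 2, seed 1). A cluster was named from at least 3 markers that were 2-fold higher in it and seen in at least 10% of its cells, and "-like" marks names that rest on RNA alone.

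Counts were summed per tumor sample and group and tested with edgeR 4.0.16 (R 4.3.3; quasi-likelihood, robust, TMM, filterByExpr, tumor sample as a block, two-sided, Benjamini-Hochberg over all genes tested, threshold 0.05), with DESeq2 1.42.0 among the alternatives. The SE is the log2 difference over the square root of F and not a spread over samples. Sums held 5366987 to 10814467 UMIs in the sort comparison. Replicates 1, 2 and 3 are the early, medium and late samples, and same-numbered sums come from the same tumor sample. Their deviations correlated at 0.38, 0.28 and 0.30 in the sort, 0.18, 0.19 and 0.14 in the microglia and 0.18, 0.10 and 0.17 in the macrophage comparison, and at 0.058 in the glioma comparison. On simulated data the fits recovered 100%, 99%, 99% and 62% of genes changed 4-fold in the sort, microglia, macrophage and glioma comparisons. Intervals are exact at 95%, and no test was made between stages.

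Genes named were the 6 with the most CD45- UMIs, those whose highest class was not oligodendrocyte-like, and in class comparisons the 5 with the most UMIs and those passing against most, with 3 pathway genes from each end. Some of these are not reported here. Other genes were named after their values were seen. The 34 genes, the lists and the tests were chosen with earlier results of these data known. Promoters are RefSeq sequences of GRCm38.p6.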

Additional observations from a re-analysis of the deposited data

Results flagged for a closer look

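In the 6 groups of 4 libraries of the same stage and sort, a single library was looked for that lay far from the other 3 in each of 3 measures, which chance flags in about 1 of 20 such looks. It was found in 2 of 18, and the measures share libraries and are not independent. Among the CD45- medium libraries, 1 with 490 cells from run 2 had 30447 CPM for the 34 genes, and the others, with 335 to 406 cells, had 26395 to 27068 CPM. Among the CD45+ early libraries, 1 with 132 cells from run 1 had 1665 CPM for these genes outside oligodendrocyte-like cells, and the others, with 1479 to 1751 cells, had 707 to 778 CPM. The cause of neither was tested.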

How the results depend on the processing

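Values over cells are limited by 1 tumor sample per stage, by the shared barcodes and by free RNA that the deposited counts may hold. The count of 34 genes lower in CD45+ cells stayed at 33 or 34 in the settings run. Without TMM factors 2589 genes were higher and 6564 lower in the CD45+ sort (3768 and 4738 with them), and the median of all genes moved to -0.40. Same-numbered sums share a tumor sample. Without the replicate block, 1 gene in place of 3 was lower in the glioma comparison, 9 in place of 10 were higher, and Trf was lost in the sort comparison (edgeR quasi-likelihood adjusted p = 0.0519).

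Settings on shared barcodes, on the cell richest in the 34 genes and on clusters 3, 9, 10 and 30 were chosen after seeing the data. Of genes higher in microglia-like cells (2), DESeq2 gave 1, 1 library per shared barcode 1, members kept among the clustering genes 4, and sums without their richest cell 4, and leaving out a tumor sample gave 1 to 3. Of genes lower (2), every gene with at least 1 count gave 4, members kept 1 and sums without their richest cell 1, and leaving out a tumor sample gave 1 to 3. Of genes higher in macrophage or monocyte-like cells (2), DESeq2, members kept, removal of the top 5% of doublet scores and sums without their richest cell each gave 1, and leaving out any tumor sample gave 1. Of genes lower there (0), every gene with at least 1 count gave 1, adding clusters 3, 10 and 30 gave 2, and leaving out a tumor sample gave 0 to 2. Of genes lower in glioma-like cells (3), no TMM gave 5, every gene 5, members kept 6 and removal of top doublet scores 5. DESeq2 called 341 genes higher and 622 lower there (922 and 890 with edgeR). No TMM gave 532 higher and 557 lower genes in the macrophage comparison (622 and 426 with it). Leaving out a tumor sample could not be fitted in the glioma comparison, where no residual degrees of freedom were left.

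The share of CD45+ UMIs of the 34 genes in oligodendrocyte-like cells (26.5%) was 29.7% with members kept, 29.0% without top doublet scores, 35.2% with each cell classed by its own markers and 27.5% with 1 library per shared barcode. Among the genes picked by the naming rule, signs turned for 2 values that had missed the threshold: Mag in microglia-like cells (-0.23 without replicate 2, within a range of -0.23 to 1.39 over the tumor samples left out), and Mbp in macrophage or monocyte-like cells without replicate 1 (0.35, within a range of -0.34 to 0.35), with members kept (0.77), without top doublet scores (0.12), with 1 library per shared barcode (0.0052) and without the richest cell (0.21). For genes not picked by it, the range of values over the settings also spanned 0 for Cryab and Tmem88b in microglia-like cells, Anln and Mag in macrophage or monocyte-like cells, and Aspa, Ermn, Gjb1, Mcam, Mog and Trf in glioma-like cells. Apart from the values given, the cause of a moved count was not tested.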
